A study of Homo sapiens with 12 samples.

Results

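The mRNA of MonoMac6 (MM6) cells carrying hairpin shBP2-1 was compared with the mRNA of MM6 cells carrying hairpin shBP2-2, both of which target IGF2BP2. MM6 is an established line of human monocytic cells that was derived from acute myeloid leukemia (AML). The genes compared were those with a mean normalized read count of at least 10 over the 4 libraries of the 2 hairpins after rescaling, and 12197 of the 19951 gene entries in the deposited table met this minimum. Each hairpin was delivered by lentivirus for 48 h, after which the cells were selected with puromycin for 2 days, and each group held 2 mRNA libraries. The same series holds 2 mRNA libraries of cells with the control hairpin shNS and ribosome footprint libraries of all 3 groups. The shNS values are given beside the others as a level and were not tested against either hairpin. All cells, the controls included, carried a lentiviral hairpin and had passed puromycin selection. No label says whether replicates were separate cultures, so the p-values measure the spread between these libraries, which may be technical.

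IGF2BP2 binds mRNAs that carry N6-methyladenosine (m6A) and protects them from decay, and it has been studied in AML for its part in glutamine metabolism. A short hairpin RNA is processed into a small interfering RNA that directs AGO2 to a complementary site in the target mRNA. Several gene groups below belong to the ATF4 pathway. ATF4 is a transcription factor made when eIF2 is phosphorylated, for instance by the kinase GCN2 during amino acid shortage, and it switches on amino acid importers, amino acid synthesis enzymes and aminoacyl-tRNA synthetases.

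The deposited values are normalized read counts rounded to whole numbers, and levels are given below as these values divided by 1 median-ratio factor per library. Library totals of the 4 mRNA libraries lay between 23116887 and 24854593 and the factors between 0.978 and 1.02. Differences are log2(value + 1) in shBP2-1 minus the same in shBP2-2, written with their standard error, and a gene is called where the Benjamini-Hochberg adjusted p of limma over all 12197 genes was under 0.05. Each group had n = 2, and every p below is two-sided. An exact permutation test of 2 against 2 libraries cannot give a p under 0.333, so the calls rest on the spread that limma shares across genes. At the minimum, PPP1R36 passed with 10.9 and 9.80 in shBP2-1 and 12.3 and 7.04 in shBP2-2, and SLC13A3 did not pass with 6.93 and 9.80 in shBP2-1 and 8.18 and 15.1 in shBP2-2. Among the 7754 entries below the minimum, 4267 were at 0 in all 4 libraries.

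Of the 12197 genes tested, 2248 were called, or 18.4%. Of these, 1058 were higher with shBP2-1 (8.67% of the genes tested) and 1190 were lower (9.76%). Counts of called genes on the lists below are to be read beside these 2 shares. The median difference over all tested genes was 0.02, and its quartiles were -0.21 and 0.23. Large differences were mostly on the lower side. Called differences of at least 1 in size numbered 123 higher and 382 lower, and those of at least 2 numbered 12 higher and 68 lower. Among all calls, the lean to the lower side depended on level. In the 2440 genes with the lowest means, up to 137.3, 13.57% were called lower and 4.92% higher. In the 2440 genes with the highest means the shares were 7.91% and 7.13%, in the same order. With a minimum mean of 50, 1051 genes were called higher and 1056 lower. For comparison, the median absolute gap between replicates was 0.20 within shBP2-1 and 0.15 within shBP2-2, and the median absolute difference between the hairpins was 0.22. The number of calls depended on single libraries. When shBP2-2 replicate 1 was left out 764 genes were called, and when its replicate 2 was left out 884 were. Leaving out shBP2-1 replicates 1 and 2 in turn gave 1789 and 2770 calls.

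**Figure D1:**
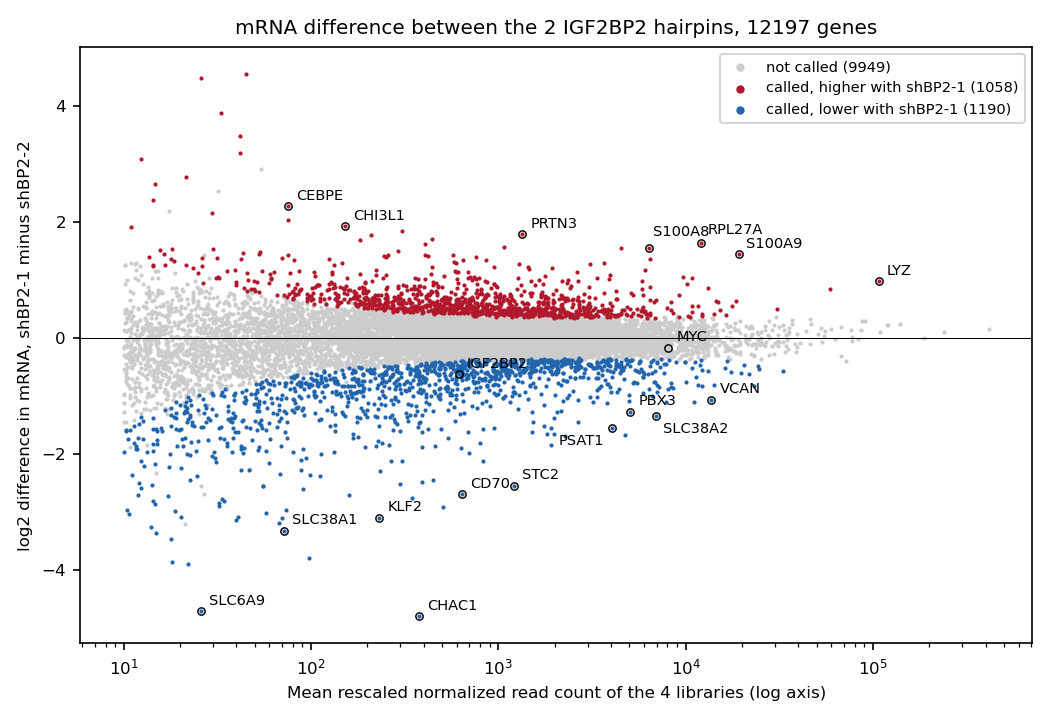
Each point is 1 of 12197 genes, with the mean rescaled normalized read count of the 4 libraries on a log axis and the log2 mRNA difference, shBP2-1 minus shBP2-2, on the vertical axis. The 1058 genes called higher with shBP2-1 are red and the 1190 called lower are blue. CHAC1 and SLC6A9 lie lowest among the labelled genes, at -4.79 and -4.70.

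The targeted gene itself differed between the hairpins. IGF2BP2 (chromosome 3, 185643130 to 185825042, GRCh38.p14) had a normalized read count of 472 and 497 in the shBP2-1 libraries and 714 and 776 in the shBP2-2 libraries, beside 2418 and 2313 in shNS. The hairpin groups did not overlap, and all 4 libraries lay below both shNS libraries. The difference was -0.62 ± 0.14 with a limma adjusted p of 0.00367. That call was lost without shBP2-2 replicate 1 (adjusted p = 0.0611) and without shBP2-2 replicate 2 (adjusted p = 0.151). IGF2BP3, the paralog that most cells switch off after fetal life, had 44.57 and 49.99 in shBP2-1, 38.8 and 45.3 in shBP2-2 and 21.5 and 16.7 in shNS. The hairpin groups overlapped, and the difference of 0.17 ± 0.26 was not called (adjusted p = 0.706). IGF2BP1 reached at most 1.02 in any of the 4 libraries and was not tested.

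The other parts of the m6A machinery and of the machinery that hairpins use were counted beside IGF2BP2. Of 23 tested writers, erasers and readers of m6A, 1 was called higher (4.35%) and 2 lower (8.70%), with a median difference of 0.01, against 8.67% higher and 9.76% lower over all tested genes. Besides IGF2BP2, the called genes were FMR1, an RNA-binding reader protein (-0.37), and RBM15B, an adaptor of the methyltransferase complex (0.46). Of 18 tested genes for small-RNA processing and RNA interference, 1 was called higher (5.56%) and 2 lower (11.1%). Neither share was read as a result about these lists. AGO2, the slicing Argonaute, was lower with 2565 and 2503 in shBP2-1 against 3436 and 3469.7 in shBP2-2 (-0.45 ± 0.12, limma adjusted p = 0.0128). AGO4 was higher, with 1375 and 1577 in shBP2-1 against 1128 and 1012 in shBP2-2 (0.46). FMR1 belongs to both lists. The calls of AGO2, AGO4, FMR1 and RBM15B were all lost without shBP2-2 replicate 1 and all lost without shBP2-2 replicate 2, with adjusted p between 0.199 and 0.641 in the first fit. FMR1 and RBM15B also lost theirs without shBP2-1 replicate 1, and AGO4 without shBP2-1 replicate 2.

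ATF4 target genes were mostly lower with shBP2-1. Of 37 tested genes on the list, 23 were called lower (62.2%) and 4 higher (10.8%), against 9.76% and 8.67% over all tested genes. The median difference was -0.80, against 0.02 over all genes. Some of the 37 are also on lists below, such as WARS1 and ALDH18A1, so the counts of the lists are not independent. CHAC1, a glutathione-degrading enzyme and one of the most inducible targets of the pathway, had the largest lower difference of all called genes with a mean of at least 100 (chromosome 15, 40953471 to 40956512, GRCh38.p14). It had 30.7 and 20.6 in shBP2-1, 668 and 784 in shBP2-2 and 1663 and 1642 in shNS. CHAC1 was thus 28.3-fold lower in shBP2-1 than in shBP2-2 (-4.79 ± 0.21, limma adjusted p = 1.44e-10), and both shBP2-2 libraries lay below both shNS libraries.

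The promoter windows of several amino acid response genes are shown because ATF4 binds, with C/EBP partners, a composite site whose core reads TGATGNAA. Windows run from 250 bases before to 50 bases after a gene's start in the RefSeq table of build GRCh38.p14, 5′ to 3′ on the gene's own strand, and each gene with several starts has several windows. Both strands were searched, no other motif was searched, and a match is a description of letters and not a shown binding site. The 5 windows below belong to genes called lower with shBP2-1 and hold 1 match each, in capitals. They are CHAC1 (chr15:40953221-40953520, plus strand), the asparaginyl-tRNA synthetase NARS1 (chr18:57621787-57622086, minus strand), the methionyl-tRNA synthetase MARS1 (chr12:57487818-57488117, plus strand), the alanyl-tRNA synthetase AARS1 (chr16:70289457-70289756, minus strand) and the glutamine importer SLC38A1 (chr12:46266467-46266766, minus strand).
CHAC1: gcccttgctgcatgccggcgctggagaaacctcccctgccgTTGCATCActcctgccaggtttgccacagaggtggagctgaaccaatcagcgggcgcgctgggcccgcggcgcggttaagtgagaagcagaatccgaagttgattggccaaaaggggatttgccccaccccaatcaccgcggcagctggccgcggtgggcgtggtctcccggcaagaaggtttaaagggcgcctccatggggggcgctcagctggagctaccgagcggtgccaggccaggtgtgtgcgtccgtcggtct
NARS1: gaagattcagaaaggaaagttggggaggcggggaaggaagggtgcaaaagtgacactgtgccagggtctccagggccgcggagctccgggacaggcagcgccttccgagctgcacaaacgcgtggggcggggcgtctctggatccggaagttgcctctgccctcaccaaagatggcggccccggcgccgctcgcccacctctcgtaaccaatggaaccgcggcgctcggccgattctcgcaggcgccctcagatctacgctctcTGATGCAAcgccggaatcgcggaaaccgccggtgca
MARS1: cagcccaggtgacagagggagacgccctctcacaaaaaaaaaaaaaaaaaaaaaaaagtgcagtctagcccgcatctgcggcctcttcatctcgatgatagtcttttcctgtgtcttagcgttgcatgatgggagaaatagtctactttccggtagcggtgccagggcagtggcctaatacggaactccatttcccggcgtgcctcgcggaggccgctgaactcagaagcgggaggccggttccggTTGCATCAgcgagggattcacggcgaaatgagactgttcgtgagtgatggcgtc
AARS1: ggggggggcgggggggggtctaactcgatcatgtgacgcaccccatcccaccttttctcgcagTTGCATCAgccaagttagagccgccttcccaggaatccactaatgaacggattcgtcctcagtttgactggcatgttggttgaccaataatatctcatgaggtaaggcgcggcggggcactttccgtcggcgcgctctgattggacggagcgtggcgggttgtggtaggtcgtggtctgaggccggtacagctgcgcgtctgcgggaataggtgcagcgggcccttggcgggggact
SLC38A1: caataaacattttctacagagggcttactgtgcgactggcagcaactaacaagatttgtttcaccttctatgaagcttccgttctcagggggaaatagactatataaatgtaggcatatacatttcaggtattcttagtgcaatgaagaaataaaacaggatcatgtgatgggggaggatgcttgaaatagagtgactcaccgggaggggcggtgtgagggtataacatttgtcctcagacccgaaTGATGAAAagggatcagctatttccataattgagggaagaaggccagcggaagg

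Of all 35116 windows in the RefSeq table, 3.62% held TGATGNAA on either strand. Among the 9767 tested genes with a window, 2.64% held it in at least 1 window. The share was 2.24% of 849 genes called higher with shBP2-1, 6.32% of 918 genes called lower and 2.26% of 8000 genes not called. By list, the match was present in 7 of 19 cytosolic aminoacyl-tRNA synthetases with a window, 5 of 20 amino acid transporters and 4 of 27 ATF4 targets. All 7 synthetases with a match (AARS1, CARS1, GARS1, IARS1, MARS1, NARS1 and TARS1) were called lower, and so were 4 of the 12 synthetases without one. The 5 transporters with a match were SLC1A4, SLC1A5, SLC38A1, SLC3A2 and SLC7A1, all called lower, against 4 of the 15 without one. The 4 ATF4 targets with a match were CHAC1, HERPUD1, JDP2 and NARS1, again all called lower, against 14 of the 23 without one. These lists share genes and hold many known ATF4 targets, so the shares describe the lists and are no test.

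ATF4 itself was lower as well. ATF4 mRNA had 2984 and 2639.5 in shBP2-1, 4893 and 4876 in shBP2-2 and 7348 and 7371 in shNS. The difference was -0.80 ± 0.12 (limma adjusted p = 1.42e-04), without overlap, and shNS lay above all 4 hairpin libraries. Of the 21 regulators tested, 6 were called lower (28.6%) and 2 higher (9.52%). ATF3, a stress-induced partner factor, had 57.4 and 63.7 in shBP2-1 against 160.5 and 138 in shBP2-2 (-1.28 ± 0.21). TRIB3, a pseudokinase that ATF4 induces and that restrains it, had 954 and 722 in shBP2-1 against 1516 and 1666 in shBP2-2 (-0.94 ± 0.14). The remaining lower calls were CEBPG, a dimer partner of ATF4 (-0.55), ATF5 (-0.58) and DDIT3, which encodes the death-associated factor CHOP (-0.50). Higher calls went to the eIF2 kinases EIF2AK4, also called GCN2 (0.51), and EIF2AK1, also called HRI (0.49). ATF4, ATF3 and TRIB3 kept their calls with each library left out, whereas the other 5 were lost without either shBP2-2 replicate (adjusted p 0.0547 to 0.282 without replicate 1 and 0.111 to 0.299 without replicate 2), and DDIT3 was also lost without shBP2-1 replicate 2 (adjusted p = 0.113).

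Further ATF4 targets called lower included secreted and signalling proteins. STC2, a secreted glycoprotein of the stress response, had 364 and 347 in shBP2-1, 2119 and 2030.5 in shBP2-2 and 2856 and 2990.1 in shNS (-2.54 ± 0.13, limma adjusted p = 9.69e-10). SESN2, a leucine sensor that restrains mTORC1, had 349 and 274 in shBP2-1, 1227 and 1482 in shBP2-2 and 2599 and 2409 in shNS (-2.12 ± 0.15). For both genes the 3 groups were separate and shBP2-1 was the lowest. VEGFA, a growth factor for blood vessels, had 867 and 770.4 in shBP2-1, 2090.4 and 2397 in shBP2-2 and 4555 and 4424 in shNS (-1.45 ± 0.13). DDIT4, another mTORC1 inhibitor, had 957 and 812 in shBP2-1, 2034 and 2227 in shBP2-2 and 4759.6 and 4513 in shNS (-1.27 ± 0.13). Other targets had low levels with shBP2-1. GDF15, a stress cytokine, had 0.990 and 2.94 in shBP2-1 against 31.7 and 52.3 in shBP2-2, INHBE had 0.990 and 1.96 against 28.6 and 41.2, and ADM2 had 16.8 and 8.82 against 169.7 and 193, in the same order of hairpins. Differences of such genes depend on the pseudocount and are not given as folds.

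The control did not lie on the same side for every ATF4 target. VLDLR, a lipoprotein receptor, had 812 and 949.7 in shBP2-1, 2834 and 2687 in shBP2-2 and 2136 and 2123 in shNS, so shBP2-2 lay above the control. TUBE1, epsilon-tubulin, had 424 and 540.0 in shBP2-1, 1499 and 1312 in shBP2-2 and 1391 and 1433 in shNS. Of the 23 targets called lower, both shNS libraries lay above all 4 hairpin libraries for 16, and the shNS mean was nearer to the shBP2-2 mean on the log2 scale for 21. These counts were not made over all called genes, so they describe these targets and are not read as particular to them. The 4 members called higher included HMOX1, heme oxygenase, which several stress pathways also induce, with 305 and 252 in shBP2-1, 87.9 and 83.5 in shBP2-2 and 131 and 134 in shNS (1.68 ± 0.18). The other 3 were SESN3 (0.82), KLHL24 (0.70) and ALDH18A1, the first enzyme of proline synthesis from glutamate (0.41). Of the 27 calls on the list, the largest number lost by leaving out a library was 7, without shBP2-2 replicate 2: ALDH18A1, GADD45A, HERPUD1, KLHL24, UPP1, WARS1 and XPOT (adjusted p 0.0529 to 0.364). Without replicate 1 of the same hairpin 5 were lost, all among those 7 (adjusted p 0.1 to 0.572). ALDH18A1 and XPOT were also lost without shBP2-1 replicate 1, and UPP1 without shBP2-1 replicate 2.

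**Figure D2:**
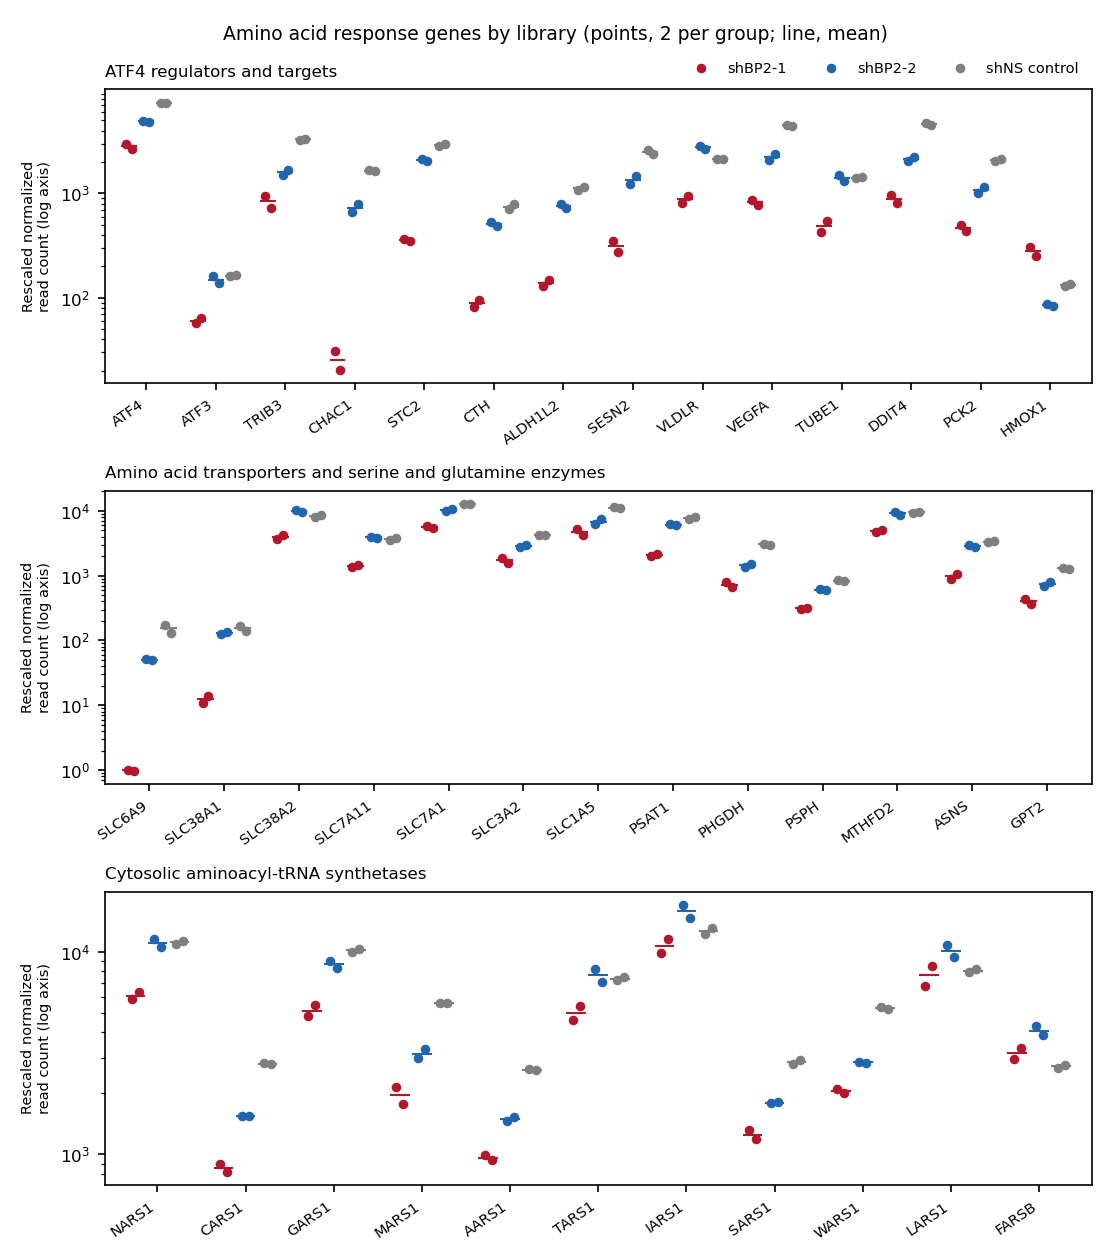
Rescaled normalized read counts (log axis) of ATF4 pathway genes, amino acid transporters and enzymes, and cytosolic aminoacyl-tRNA synthetases, with 1 point per library and a line at the mean of each pair. The shBP2-1 points (red) lie below both shBP2-2 points (blue) for each gene drawn except HMOX1, and shNS (grey) is shown as the control level.

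Of 23 tested amino acid transporters, 10 were called lower with shBP2-1 (43.5%) and 1 higher (4.35%), with a median of -0.16. Over all tested genes the shares were 9.76% and 8.67%. SLC6A9, the glycine transporter GlyT1, was at 0.990 and 0.980 in shBP2-1 against 52.1 and 49.3 in shBP2-2 and 173 and 132 in shNS. A deposited value of 1 in each shBP2-1 library lies behind that level, so no fold is given. SLC6A9 passed the minimum mean of 10 through shBP2-2. With a minimum mean of 50, 8 transporters were called lower. SLC38A1, a sodium-coupled importer of glutamine, had 10.9 and 13.7 in shBP2-1, 128 and 134 in shBP2-2 and 168 and 139 in shNS (-3.31 ± 0.27, limma adjusted p = 1.99e-07). Its relative SLC38A2, which imports small neutral amino acids, had 3692 and 4209.6 in shBP2-1, 10349.9 and 9707 in shBP2-2 and 8064 and 8511 in shNS (-1.35 ± 0.12). SLC7A11, the cystine-glutamate exchanger, had 1374 and 1462 in shBP2-1, 3928 and 3833 in shBP2-2 and 3538 and 3756 in shNS (-1.45 ± 0.12). In SLC38A2 and SLC7A11 the control lay close to shBP2-2 and apart from shBP2-1. SLC7A1, which imports arginine and lysine, had 5875 and 5446 in shBP2-1 against 10093 and 10752 in shBP2-2 (-0.88 ± 0.12). SLC3A2, the heavy chain that pairs with several SLC7 transporters, had 1849 and 1588 in shBP2-1 against 2770.2 and 2969.8 in shBP2-2 (-0.74 ± 0.13).

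SLC1A5, the main glutamine importer of many cancer cells, was lower too. It had 5247 and 4206 in shBP2-1, 6255 and 7416 in shBP2-2 and 11355 and 11071 in shNS (-0.54 ± 0.13, limma adjusted p = 0.00945). Its call was lost without shBP2-1 replicate 2 (adjusted p = 0.0558), without shBP2-2 replicate 1 (0.0914) and without shBP2-2 replicate 2 (0.326). SLC7A5, the leucine importer LAT1, was lower at -0.68, SLC1A4, which carries alanine and serine, at -0.52, and SLC7A7, a basic amino acid exporter subunit, at -0.95. The higher call was SLC36A1, a proton-coupled transporter of lysosomes (0.54). Leaving out shBP2-2 replicate 1 ended the calls of SLC1A4, SLC1A5, SLC36A1 and SLC7A7, and leaving out replicate 2 ended those and SLC7A5 (adjusted p 0.117 to 0.326). SLC36A1 was also lost without shBP2-1 replicate 1 (adjusted p = 0.0602).

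Among genes that use glutamine, several amidotransferases and transaminases were lower. Of 27 tested, 9 were called lower (33.3%) and 2 higher (7.41%). ASNS, which makes asparagine from glutamine, had 901 and 1055 in shBP2-1, 2961 and 2726 in shBP2-2 and 3252 and 3410.1 in shNS (-1.54 ± 0.13, limma adjusted p = 2.13e-07). GPT2, the mitochondrial alanine transaminase, had 439 and 359.7 in shBP2-1, 685 and 792 in shBP2-2 and 1321 and 1271 in shNS (-0.89 ± 0.15). GLUL, glutamine synthetase, had 6975 and 6576 in shBP2-1 against 5719 and 5738 in shBP2-2 (0.24 ± 0.12, adjusted p = 0.166) and was not called. GFPT1, the first enzyme of the hexosamine pathway, and CTPS1, which makes CTP, were lower at -0.55 and -0.50, and CTPS2, the second CTP synthase, was higher at 0.46. The calls of ALDH18A1, CTPS1, CTPS2, GFPT1 and SLC1A5 were lost without either shBP2-2 replicate, with adjusted p up to 0.458 and 0.326, without shBP2-1 replicate 2 those of CTPS2 and SLC1A5 were lost, and without its replicate 1 that of ALDH18A1.

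Of 21 tested genes of serine and one-carbon metabolism, 6 were called lower (28.6%) and 1 higher (4.76%), with a median of -0.23. All 3 enzymes that make serine from a glycolytic intermediate were among the lower calls. PHGDH, the first, had 788 and 666 in shBP2-1, 1361 and 1526 in shBP2-2 and 3118 and 3019.5 in shNS (-0.99 ± 0.13, limma adjusted p = 4.92e-05). PSAT1, the transaminase that uses glutamate, had 1979 and 2167 in shBP2-1, 6149.6 and 5978 in shBP2-2 and 7504 and 8123 in shNS (-1.55 ± 0.12). PSPH, the last, had 310.0 and 318 in shBP2-1, 613 and 598 in shBP2-2 and 843 and 836 in shNS (-0.95 ± 0.14). In each of the 3 the groups were separate and shNS was the highest. ALDH1L2, a mitochondrial folate enzyme, had 129.7 and 147 in shBP2-1, 799 and 717 in shBP2-2 and 1067 and 1164 in shNS (-2.45 ± 0.15). MTHFD2 had 4693 and 4974 in shBP2-1 against 9575 and 8754 in shBP2-2 (-0.92 ± 0.12), and MTHFD1L was lower at -0.60. CTH, which makes cysteine by transsulfuration, is on the list of ATF4 targets. It had 81.2 and 96.0 in shBP2-1, 526 and 489 in shBP2-2 and 702 and 794 in shNS (-2.51 ± 0.17). CBS, the enzyme before it, had 302 and 282 in shBP2-1 against 572 and 598 in shBP2-2 (-1.001 ± 0.14), but reads of CBS may be shared with a near-identical copy and its level is uncertain. Without either shBP2-2 replicate the call of MTHFD1L was lost.

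Cytosolic aminoacyl-tRNA synthetases load tRNAs for translation in the cytosol. Of 23 tested, 12 were called lower with shBP2-1 (52.2%) and none higher, with a median difference of -0.37. NARS1 had 5817 and 6307 in shBP2-1, 11510.1 and 10563 in shBP2-2 and 10935 and 11291 in shNS (-0.86 ± 0.12, limma adjusted p = 6.33e-05). CARS1, for cysteine, had 902 and 821 in shBP2-1, 1549 and 1543 in shBP2-2 and 2819.6 and 2789 in shNS (-0.84 ± 0.13). GARS1, for glycine, had 4816 and 5424 in shBP2-1, 8996 and 8335 in shBP2-2 and 9989 and 10265 in shNS (-0.76 ± 0.12). MARS1 had 2156 and 1781 in shBP2-1, 2981 and 3306 in shBP2-2 and 5586 and 5601 in shNS (-0.68 ± 0.13). The NARS1 control level lay close to shBP2-2, whereas the CARS1 and MARS1 control levels lay above both hairpins. On the log2 scale the shNS mean was nearer to shBP2-2 for 8 of the 12 and nearer to shBP2-1 for 4. Both shNS libraries lay above all 4 hairpin libraries for 6 and below all 4 for 1. No share over all called genes stands beside these counts. The other called genes lay between -0.63 for AARS1 and -0.37 for FARSB, a subunit of the phenylalanine enzyme. They included TARS1 (-0.61), IARS1 (-0.56), SARS1 (-0.53), WARS1 (-0.47), LARS1 (-0.41) and EEF1E1, a scaffold protein of the multi-synthetase complex (-0.43).

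The synthetase calls were sensitive to single libraries. Without shBP2-2 replicate 1, 3 of the 12 kept their call (NARS1, CARS1 and MARS1), and the other 9 had adjusted p between 0.0607 and 0.666. Leaving out shBP2-2 replicate 2 kept 4 (NARS1, CARS1, GARS1 and TARS1). Leaving out shBP2-1 replicate 1 ended the calls of EEF1E1, FARSB, IARS1 and LARS1. No sign changed in any of these fits. Of 17 tested mitochondrial synthetases, 4 were called higher (23.5%) and none lower. They included TARS2 (0.58), VARS2 (0.47) and HARS2 (0.42), and all 4 calls were lost without shBP2-2 replicate 1 (adjusted p 0.144 to 0.518). HARS2 and VARS2 were also lost without replicate 2, HARS2, TARS2 and VARS2 without shBP2-1 replicate 1, and HARS2 without its replicate 2. Whether the cytosolic and mitochondrial lists differed from each other was not tested.

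Other stress pathways were tested beside ATF4. Of 25 tested unfolded protein response genes and ER chaperones, 4 were called lower (16%) and none higher, with a median of -0.04. XBP1, the transcription factor of the IRE1 branch, had 5044 and 5239.7 in shBP2-1 against 9360.4 and 9059 in shBP2-2 (-0.84 ± 0.12, limma adjusted p = 6.33e-05), with shNS at 9099.5 and 8983. HYOU1, an ER chaperone, was lower at -0.59, and that call was lost without either shBP2-2 replicate. Of 21 tested heat shock genes, 6 were called higher (28.6%) and none lower, with a median of 0.21. HSPB1, a small heat shock protein, had 7319 and 5775 in shBP2-1 against 3575 and 4251 in shBP2-2 (0.74 ± 0.14), and BAG3, a co-chaperone, had 639.8 and 538 against 280.1 and 342 in the same order (0.92 ± 0.15). HSPA1A, the inducible HSP70, was higher at 0.95 and its near-identical copy HSPA1B at 0.69. Reads may be shared between these genes, which was not examined, so both levels are uncertain. Without shBP2-2 replicate 1 the calls of DNAJB1, HSPA1B, HSPB1 and HSPH1 were lost, and that of HSPH1 was also lost without replicate 2 and without shBP2-1 replicate 2.

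**Figure D3:**
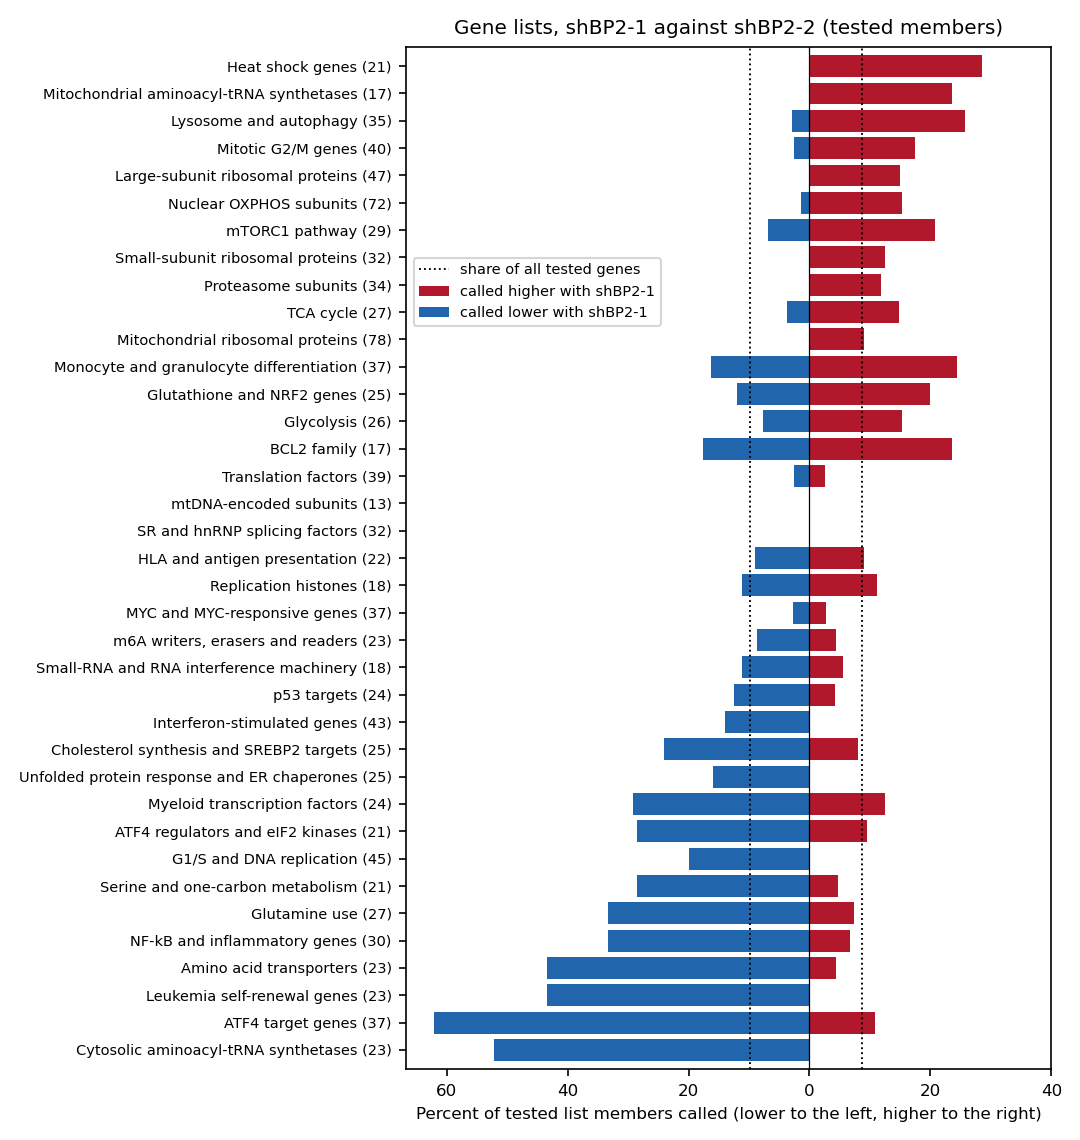
Percent of tested members called lower with shBP2-1 (blue, to the left) and called higher (red, to the right) for each gene list with at least 10 tested members, whose number stands in brackets. Dotted lines mark the shares of all tested genes, 9.76% lower and 8.67% higher. The ATF4 targets reach 62.2% called lower.

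Of 23 tested genes tied to self-renewal in AML, 10 were called lower with shBP2-1 (43.5%) and none higher, with a median of -0.37. PBX3, the cofactor of HOXA9 and MEIS1, had 2818 and 3100.1 in shBP2-1, 7447 and 6818 in shBP2-2 and 4288 and 4388 in shNS (-1.27 ± 0.12, limma adjusted p = 1.05e-06). SATB1, a chromatin organizer, had 4463 and 4516 in shBP2-1, 8285 and 8232 in shBP2-2 and 6242 and 6491 in shNS (-0.88 ± 0.12). In both genes the control lay between the hairpins. CD44, an adhesion receptor of leukemic stem cells, had 4827 and 5159 in shBP2-1, 8868 and 8103 in shBP2-2 and 6256 and 6519.9 in shNS (-0.76 ± 0.12). MEF2C, a transcription factor of leukemic stem cells, had 1107 and 1213 in shBP2-1, 1794 and 1729 in shBP2-2 and 1332 and 1378 in shNS (-0.60 ± 0.12). Further lower calls were those of HOXA4 (-0.88), HOXA3 (-0.53), JMJD1C, a chromatin factor (-0.42), HOXA9 (-0.41), HOXA10 (-0.37) and MEIS1 (-0.37). For 7 of the 10 genes both shNS libraries lay between the hairpin groups, a count with no share over all called genes beside it. Leaving out shBP2-2 replicate 1 kept PBX3 and SATB1 and ended the other 8 calls (adjusted p 0.0645 to 0.577), and leaving out replicate 2 kept those 2 and CD44. Without shBP2-1 replicate 1 the calls of HOXA9, JMJD1C and MEIS1 were lost, and without its replicate 2 those of HOXA3 and HOXA10.

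MYC was not called between the hairpins. It had 8154 and 7091 in shBP2-1, 8266 and 8775 in shBP2-2 and 12321 and 12132 in shNS, so both hairpins were below the control (-0.16 ± 0.12 between hairpins, limma adjusted p = 0.385). Of 37 tested MYC-responsive genes, MYC included, 1 was called higher (2.70%) and 1 lower (2.70%), with a median of -0.05. TFRC, the transferrin receptor, was the lower one (-0.48). That call was lost without shBP2-2 replicate 1 (adjusted p = 0.516), without its replicate 2 (0.160) and without shBP2-1 replicate 1 (0.204), and so was the higher call of NOP16, a nucleolar protein.

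Myeloid genes moved in both directions. The labelled cell line was checked against 9 monocytic and AML markers, and all were detected in the 4 libraries, the lowest being CSF1R with a minimum of 59.8. Of 37 tested genes of monocyte and granulocyte differentiation, 9 were called higher (24.3%) and 6 lower (16.2%), with a median of 0.02. In these bulk libraries fewer cells of a type and less RNA per cell cannot be told apart. Granule enzymes and S100 proteins were on the higher side. PRTN3, proteinase 3 of the primary granules (chromosome 19, 840999 to 848175, GRCh38.p14), had 2312 and 1851 in shBP2-1, 546 and 659.7 in shBP2-2 and 1956 and 1868 in shNS (1.78 ± 0.14, limma adjusted p = 1.45e-07). MPO, myeloperoxidase of the same granules, had 3970.4 and 3290.3 in shBP2-1, 1504 and 1791 in shBP2-2 and 5364 and 5318 in shNS (1.14 ± 0.13). In PRTN3 the control lay at the shBP2-1 level, and in MPO it lay above both hairpins. S100A8, 1 subunit of the calcium-binding protein calprotectin, had 8945 and 10046 in shBP2-1, 3493 and 3011 in shBP2-2 and 3737 and 3762 in shNS (1.55 ± 0.13). S100A9, its partner, had 30369 and 26416 in shBP2-1, 10173 and 10586 in shBP2-2 and 18382 and 17882 in shNS (1.45 ± 0.13). For S100A8 the control lay near shBP2-2, and for S100A9 it lay between the groups.

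LYZ, lysozyme, had 141297 and 143481 in shBP2-1, 72994 and 70980.0 in shBP2-2 and 87439 and 85893 in shNS (0.98 ± 0.14, limma adjusted p = 6.64e-05). CYBB, the catalytic subunit of the phagocyte oxidase, had 2208 and 2336 in shBP2-1, 1257 and 1115 in shBP2-2 and 1002 and 1113 in shNS (0.94 ± 0.12). Both were highest with shBP2-1. MNDA, a nuclear antigen of myeloid cells, was higher at 0.62, and the granule proteases ELANE and CTSG at 0.64 and 0.50. On the lower side, VCAN, a proteoglycan of classical monocytes, had 8184 and 9569 in shBP2-1, 19625 and 17386 in shBP2-2 and 9531 and 9892 in shNS (-1.06 ± 0.13). CD14, the co-receptor for lipopolysaccharide, had 564 and 447 in shBP2-1 against 698 and 878 in shBP2-2 (-0.64), ITGAX, an integrin of mature myeloid cells, was lower at -0.68, FCGR2A, an Fc receptor, at -0.63, and FCER1G, an Fc receptor chain, at -0.39. Without shBP2-2 replicate 1 the calls of CTSG, ELANE, FCER1G, FCGR2A and MNDA were lost, and without replicate 2 those of CD14, CTSG, FCER1G, ITGAX and MNDA. CTSG, ELANE and FCER1G also lost theirs without shBP2-1 replicate 1.

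Among myeloid transcription factors, 3 of 24 tested were called higher (12.5%) and 7 lower (29.2%). KLF2, a factor of quiescent and anti-inflammatory cells (chromosome 19, 16324826 to 16328685, GRCh38.p14), had 63.4 and 35.3 in shBP2-1, 381 and 442 in shBP2-2 and 74.3 and 72.6 in shNS (-3.09 ± 0.23, limma adjusted p = 7.51e-08). Its relative KLF6 had 779 and 794 in shBP2-1, 1544 and 1598 in shBP2-2 and 649 and 739 in shNS (-0.997 ± 0.12). For both the control lay near shBP2-1. CEBPE, which drives late granulocyte development, went the other way at low levels, with 126 and 124 in shBP2-1, 21.5 and 29.2 in shBP2-2 and 77.3 and 75.6 in shNS (2.28 ± 0.25). GATA2, a factor of stem and progenitor cells, had 449 and 349.9 in shBP2-1, 750.3 and 826 in shBP2-2 and 683 and 642 in shNS (-0.99 ± 0.15). IRF5 (0.67) and BCL6 (0.50) were the other higher calls, and EGR2 (-0.61) was among the lower ones. RUNX2 and EGR1 were lower too, both at -0.37. The calls of BCL6, EGR1, EGR2, IRF5 and RUNX2 were lost without shBP2-2 replicate 1, and those of BCL6, EGR1, EGR2 and RUNX2 without replicate 2. BCL6 and RUNX2 also lost theirs without shBP2-1 replicate 1, and EGR1 without shBP2-1 replicate 2.

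Most called inflammatory genes were lower with shBP2-1. Of 30 tested NF-kB and inflammatory genes, 10 were called lower (33.3%) and 2 higher (6.67%), with a median of -0.27. CCL2, the chemokine that draws monocytes, had 344 and 329 in shBP2-1, 988 and 1081 in shBP2-2 and 888 and 881 in shNS (-1.62 ± 0.14, limma adjusted p = 2.51e-07). IL1B, interleukin-1 beta, had 468 and 422 in shBP2-1, 1034 and 978 in shBP2-2 and 822 and 854 in shNS (-1.18 ± 0.13). CXCL1 had 141 and 137 in shBP2-1, 351 and 367 in shBP2-2 and 248 and 198 in shNS (-1.36 ± 0.16). PTGS2, the inducible cyclooxygenase, had 339.7 and 404 in shBP2-1, 666 and 676 in shBP2-2 and 338 and 375 in shNS (-0.86 ± 0.14), so its control lay at the shBP2-1 level. TNIP1, an inhibitor of NF-kB signalling, was higher with 997 and 857 in shBP2-1, 327 and 402 in shBP2-2 and 1064 and 1076 in shNS (1.35 ± 0.15). Of the 12 calls, 7 were lost without shBP2-2 replicate 1 and 6 without replicate 2. CCL2, IL1B, CXCL1, PTGS2 and TNIP1 kept theirs with each library left out.

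Of 43 tested interferon-stimulated genes, 6 were called lower (13.95%, against 9.76% over all tested genes) and none higher, with a median of -0.14. CXCL10 had 11.9 and 20.6 in shBP2-1, 145 and 116 in shBP2-2 and 38.2 and 35.3 in shNS (-2.97 ± 0.29, limma adjusted p = 1.48e-06). XAF1, an interferon-induced proapoptotic factor, was lower at -0.69, a call lost without shBP2-2 replicate 1, as were those of DDX60, IFITM3 and IRF9, which were also lost without replicate 2. Among 22 tested HLA and antigen presentation genes, 2 were called higher and 2 lower, or 9.09% each. Over all tested genes 8.67% were higher and 9.76% lower, so neither share was read as a result. The higher calls were those of NLRC5 and TAP1. The class II chains HLA-DRA and HLA-DPA1 were lower at -0.58 and -0.87, and both calls were lost without either shBP2-2 replicate. Read sharing between related HLA and IFITM genes leaves their levels uncertain.

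The genes with the largest called differences, members of the lists included, were described by where the control lay. The same was not counted over all called genes, so the counts describe these genes only. Among the 15 genes with the largest higher differences at a mean of at least 100, both shNS libraries lay between the hairpin groups for 8, above all 4 hairpin libraries for 5 and below all for 0. RPL27A, a protein of the large ribosomal subunit (chromosome 11, 8682792 to 8689872, GRCh38.p14), had 19522 and 17278 in shBP2-1, 5684 and 6086 in shBP2-2 and 21462 and 21279 in shNS (1.64 ± 0.12, limma adjusted p = 7.51e-08). ATP5F1D, a subunit of ATP synthase, had 1762 and 1428 in shBP2-1, 469 and 614 in shBP2-2 and 2211 and 2243 in shNS (1.56 ± 0.15). In both genes shBP2-2 stood alone, far below the control, while shBP2-1 was closer to it. The same held for MLC1, a membrane protein known from astrocytes (696 and 531 in shBP2-1, 181 and 215 in shBP2-2, 757 and 751 in shNS). HECTD3, a ubiquitin ligase, showed it too (466 and 399 in shBP2-1, 150.3 and 153 in shBP2-2, 467 and 448 in shNS). C20orf27 had 954 and 719 in shBP2-1, 305 and 309 in shBP2-2 and 1089.9 and 1101 in shNS.

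Other genes of that group were higher with shBP2-1 than with shBP2-2 and had the control between them. CHI3L1, a secreted chitinase-like protein, had 274 and 209.7 in shBP2-1, 61.3 and 63.4 in shBP2-2 and 152 and 169 in shNS (1.93 ± 0.20). HP, haptoglobin, had 344 and 305 in shBP2-1, 100.2 and 88.5 in shBP2-2 and 198 and 197 in shNS (1.77 ± 0.17). FZD6, a receptor for WNT ligands, had 638 and 718 in shBP2-1, 219 and 196 in shBP2-2 and 342 and 332 in shNS (1.70 ± 0.15). GRAMD1B, a sterol transfer protein, had 492 and 462 in shBP2-1, 134 and 131 in shBP2-2 and 225 and 261 in shNS (1.84 ± 0.16). All 15 genes kept their call with each library left out.

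Among the 15 largest lower differences, both shNS libraries lay between the groups for 8, above all 4 hairpin libraries for 5 and below all for 1. Here too no share over all called genes was counted. Besides ATF4 targets and KLF2, they included genes of secreted and surface proteins. ENPP2, the enzyme autotaxin, had 103 and 133 in shBP2-1, 967 and 811 in shBP2-2 and 155 and 146 in shNS (-2.91 ± 0.17, limma adjusted p = 3.81e-09). ANGPT1, angiopoietin-1, had 76.3 and 101 in shBP2-1, 610.3 and 592 in shBP2-2 and 167 and 168 in shNS (-2.76 ± 0.17). CD70, a ligand of the tumour necrosis factor family, had 176 and 165 in shBP2-1, 982 and 1229 in shBP2-2 and 338 and 372 in shNS (-2.68 ± 0.15). DUSP4, a phosphatase that turns off ERK signalling, had 43.6 and 40.2 in shBP2-1, 256 and 301 in shBP2-2 and 84.1 and 78.5 in shNS (-2.70 ± 0.20). In all 4 the control was nearer to shBP2-1. IGFBP3, which binds insulin-like growth factors, had 106 and 93.1 in shBP2-1, 447 and 426 in shBP2-2 and 131 and 121 in shNS (-2.12 ± 0.17). INHBA, the activin A subunit, had 83.2 and 75.5 in shBP2-1, 397 and 384 in shBP2-2 and 136 and 169 in shNS (-2.29 ± 0.17). GJA1, connexin 43, had 31.7 and 39.2 in shBP2-1 against 176 and 198 in shBP2-2, NEGR1, an adhesion protein of neurons, had 122 and 107 against 499 and 495, and VAT1L had 109 and 129 against 707 and 626, in the same order. These calls also held with each library left out.

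**Figure D4:**
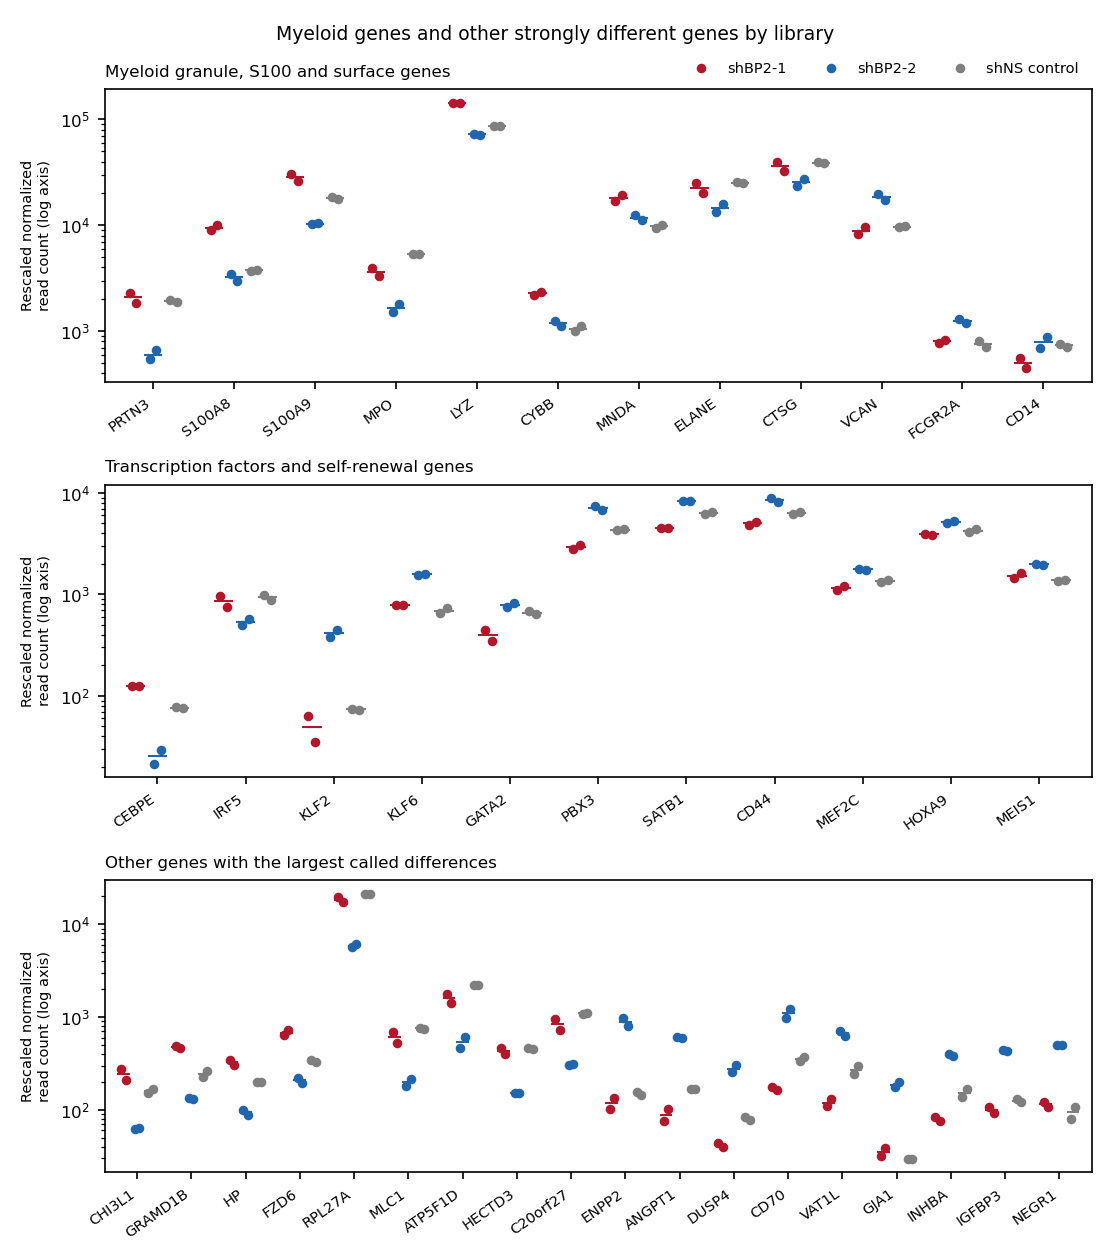
Rescaled normalized read counts (log axis) by library for myeloid genes, transcription factors with self-renewal genes, and other genes with the largest called differences, with shBP2-1 in red, shBP2-2 in blue, shNS in grey and a line at each mean. RPL27A and ATP5F1D show shBP2-2 below the other groups, and ENPP2 and KLF2 show shBP2-2 above them.

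Abundant genes, with a mean of at least 2000, differed too. IDH1, the cytosolic isocitrate dehydrogenase, had 8599 and 10078 in shBP2-1, 3848 and 3448 in shBP2-2 and 6683 and 6806 in shNS (1.35 ± 0.13, limma adjusted p = 8.00e-07). LRPAP1, a chaperone of lipoprotein receptors, had 4819 and 3949.9 in shBP2-1, 1663 and 1960.1 in shBP2-2 and 4985 and 4773 in shNS (1.27 ± 0.13). CPD, a carboxypeptidase of the secretory pathway, had 7760.5 and 9062 in shBP2-1, 3934 and 3538 in shBP2-2 and 4899.5 and 5094 in shNS (1.17 ± 0.12). INSIG1, which holds back sterol synthesis, was higher at 1.08. UBE2V1, a ubiquitin-conjugating cofactor, was higher at 1.30, though its reads may be shared with a readthrough transcript. On the lower side, PAM, which amidates secreted peptides, had 957 and 1197 in shBP2-1, 3642 and 3284 in shBP2-2 and 1128 and 1139 in shNS (-1.69 ± 0.13). CLIC4, an intracellular chloride channel protein, had 2161 and 2415 in shBP2-1, 7332 and 7128 in shBP2-2 and 6112 and 6605 in shNS (-1.66 ± 0.12). NT5E, the surface enzyme CD73 that makes adenosine, had 1082 and 1318 in shBP2-1, 3003 and 2812 in shBP2-2 and 829 and 744 in shNS (-1.28 ± 0.13). MMRN1, a secreted protein of platelets and endothelium, had 6634 and 7479 in shBP2-1, 15689 and 14710.3 in shBP2-2 and 6273 and 6719 in shNS (-1.11 ± 0.12). TP53INP2, an autophagy protein, was lower at -1.26 and ZNF117, a zinc finger gene, at -1.12. CLIC4 had its control near shBP2-2, whereas PAM, NT5E and MMRN1 had it near shBP2-1.

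No gene of the cytosolic or mitochondrial ribosomal proteins was called lower. Of 47 tested proteins of the large cytosolic subunit, 7 were called higher (14.9%), and of 32 of the small subunit, 4 were called higher (12.5%), with medians of 0.21 and 0.23, against 8.67% called higher over all tested genes. RPS20 had 14129 and 15080.1 in shBP2-1, 7466 and 6746 in shBP2-2 and 12557 and 12632 in shNS (1.04 ± 0.12, limma adjusted p = 9.70e-06). RPL14 was higher at 0.62, RPL13A was higher at 0.56, both calls were lost without either shBP2-2 replicate, and that of RPL13A also without shBP2-1 replicate 1. Without shBP2-2 replicate 1, and likewise without replicate 2, RPL27A and RPS20 were the calls left among the 11. Many ribosomal protein genes have processed pseudogenes that can share reads, so their levels are uncertain. Of 78 mitochondrial ribosomal proteins 7 were called higher (8.97%), a share near that over all genes, led by MRPL24 (1.23). Of 39 translation factors 1 was called higher (EIF3F) and 1 lower (EIF2S3), or 2.56% each. Of 34 proteasome subunits 4 were called higher (11.8%), led by PSMB7 (0.69). Each of these was lost without shBP2-2 replicate 1 except MRPL24, and EIF3F and EIF2S3 were also lost without shBP2-2 replicate 2 and without shBP2-1 replicate 1. Of 72 nuclear OXPHOS subunits 11 were called higher (15.3%) and 1 lower (1.39%). Of 27 TCA cycle genes 4 were higher (14.8%) and 1 lower (3.70%), and of 26 glycolysis genes 4 higher (15.4%) and 2 lower (7.69%). NDUFA5, a complex I subunit, was the lower OXPHOS call, with 1559 and 1629 in shBP2-1 against 3242 and 3063 in shBP2-2 (-0.98 ± 0.12). ATP5F1D and NDUFA5 kept their calls without each library in turn, while the other 10 OXPHOS calls were lost without shBP2-2 replicate 1 (adjusted p 0.451 to 0.627). The same 10 were lost without shBP2-2 replicate 2 and without shBP2-1 replicate 1. None of the 13 genes encoded by mitochondrial DNA and none of the 32 splicing factors of the SR and hnRNP families was called by limma, and 1 and 4 of them had an unadjusted p under 0.05.

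Nutrient sensing, metal and lysosome genes included several called members. Of 29 tested mTORC1 pathway genes, 6 were called higher (20.7%) and 2 lower (6.90%), against 8.67% and 9.76% over all tested genes. The Rag GTPases, which bring mTORC1 to the lysosome, were split. RRAGC had 1017 and 1199 in shBP2-1, 684 and 637 in shBP2-2 and 513 and 622 in shNS (0.74 ± 0.13, limma adjusted p = 8.34e-04), RRAGA (0.75) and RRAGD (0.66) were also higher, and RRAGB was lower (-0.70). The calls of RRAGA, RRAGB and RRAGD were lost without shBP2-2 replicate 1, along with LAMTOR2 and RPS6KB2, and RRAGD was also lost without replicate 2. Of 35 lysosome and autophagy genes, 9 were called higher (25.7%) and 1 lower (2.86%), with a median of 0.26. CTSZ, a lysosomal protease, had 8264 and 7266 in shBP2-1, 3748 and 4114 in shBP2-2 and 7866 and 8096 in shNS (0.98 ± 0.12), and NPC1, which exports cholesterol from lysosomes, was the lower one (-0.58). Without shBP2-2 replicate 1 CTSZ was the call left among the 10, and NPC1 was also lost without replicate 2. Of 25 glutathione and NRF2 genes, 5 were called higher (20%) and 3 lower (12%). FTL, the ferritin light chain, had 85641 and 67299.7 in shBP2-1, 38612 and 45820.5 in shBP2-2 and 64299 and 63507 in shNS (0.85 ± 0.15), a call lost without shBP2-2 replicate 1, and ME1, malic enzyme, was lower at -0.81.

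Cholesterol synthesis genes and SREBP2 targets had 6 of 25 called lower (24%) and 2 higher (8%), against 9.76% and 8.67% over all tested genes. HMGCS1, an early enzyme of the pathway, had 3643 and 4281 in shBP2-1, 6972 and 6412 in shBP2-2 and 3327 and 3689 in shNS (-0.76 ± 0.12, limma adjusted p = 3.19e-04), so shBP2-2 lay above the control. All calls of this list except INSIG1 were lost without shBP2-2 replicate 1 (adjusted p 0.0612 to 0.498). Glucose genes on the lower side were SLC2A3, the glucose transporter GLUT3 (-0.82), and ALDOC, an aldolase (-1.33).

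Cell cycle genes had lower and higher calls. Of 45 tested G1/S and DNA replication genes, 9 were called lower (20%) and none higher. Of 40 mitotic genes, 7 were called higher (17.5%) and 1 lower (2.5%). CCNE2, cyclin E2, had 876 and 1018 in shBP2-1, 1907 and 1992 in shBP2-2 and 967 and 1050.0 in shNS (-1.04 ± 0.13, limma adjusted p = 1.62e-05). RRM2, the ribonucleotide reductase subunit of S phase, was lower at -0.62, and CDC20 and PLK1, which drive mitosis, were higher at 0.63 and 0.57. CCND1 was low, with 7.92 and 5.88 in shBP2-1 against 18.4 and 28.2 in shBP2-2, and passed the minimum mean of 10 through shBP2-2. Without shBP2-2 replicate 1 the calls of CCNE2 and CCND1 were kept, 7 G1/S calls were lost, and all 8 mitotic calls were lost (adjusted p 0.184 to 0.491). Leaving out replicate 2 ended calls on both lists, that of CCND1 among them. Of 24 p53 targets 1 was called higher (TIGAR, 0.91) and 3 lower. The shares of 4.17% and 12.5% stood beside 8.67% and 9.76% over all tested genes and were not read as a result. CDKN1A, the kinase inhibitor p21, was among the lower ones, with 234 and 184 in shBP2-1 against 359.8 and 409 in shBP2-2 (-0.88). The calls of BTG2, GADD45A and TIGAR did not hold without shBP2-2 replicate 2, where their adjusted p lay between 0.0529 and 0.243. Of 17 BCL2 family genes 4 were called higher (23.5%) and 3 lower (17.65%). PMAIP1, the proapoptotic protein NOXA, was lower at -0.70, and MCL1, a survival protein of AML cells, at -0.47. All 7 of those calls were lost without shBP2-2 replicate 1 (adjusted p 0.071 to 0.523), and that of MCL1 also without replicate 2 and without shBP2-1 replicate 1. Among 18 tested replication histones 2 were called higher (11.1%) and 2 lower (11.1%), near the shares over all tested genes. The largest call, H2AC18, had 100.0 and 3.92 in shBP2-1 and was at 0 in both shBP2-2 libraries, so it passed the minimum mean through shBP2-1. Its shBP2-1 replicates were far apart, and near-identical histone copies can share its reads, so its level is uncertain.

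The footprints of the same hairpins, from libraries of their own, gave another readout. Ribosome footprints are the mRNA fragments that ribosomes protect from nuclease, so their number depends on the mRNA level and on its translation. In the same fit 7575 genes were tested, and 1274 were called, or 16.8%. Totals of the footprint libraries were lower with shBP2-1, at 504631 and 456338 against 1686279 and 2583384 with shBP2-2. Of the 1058 genes called higher in mRNA, 716 had tested footprints. These differed in the same direction for 621, or 86.7%, of which 220 were called, and 4 were called in the opposite direction. Of the 1190 called lower in mRNA, 563 had tested footprints. These were in the same direction for 508, or 90.2%, of which 261 were called, and 1 was called in the opposite direction. Among the genes not called in mRNA, 62.8% had the same sign. A gene low in 1 hairpin group could pass the footprint minimum through the other. Leaving out shBP2-2 replicate 1 gave 351 footprint calls and leaving out its replicate 2 gave 97, against 2241 and 2157 when shBP2-1 replicates 1 and 2 were left out in turn.

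The genes with the largest called mRNA differences at a mean of at least 100 (15 in each direction) or at least 2000 (10 in each direction) were 46 in all. Of these, 34 had tested footprints, of which 29 were called in the same direction as the mRNA, 0 in the opposite direction and 5 were not called. The 5 were C20orf27, HMOX1 and INSIG1, higher in mRNA, and VAT1L and TP53INP2, lower in mRNA. Their footprint log2 differences were 0.61 ± 0.41 for C20orf27 (limma adjusted p = 0.339), 1.43 ± 0.48 for HMOX1 (0.0676), 0.17 ± 0.16 for INSIG1 (0.491), -2.61 ± 0.92 for VAT1L (0.0805) and -0.69 ± 0.37 for TP53INP2 (0.234). The 12 whose footprints were not tested included KLF2, ANGPT1 and DUSP4. Examples of those called follow. PRTN3 footprints were 152 and 143 in shBP2-1 against 42.9 and 33.3 in shBP2-2, a log2 difference of 1.93 ± 0.17 (limma adjusted p = 1.08e-04). S100A9 footprints were 3964 and 4119.5 in shBP2-1 against 1422 and 1459 in shBP2-2 (1.49 ± 0.04). RPL27A footprints were 864 and 935 in shBP2-1 against 248 and 234 in shBP2-2 (1.89 ± 0.08). STC2 footprints were 7.87 and 6.58 in shBP2-1 against 39.9 and 39.0 in shBP2-2 (-2.30 ± 0.30). SLC38A2 footprints were 240.1 and 224 in shBP2-1 against 602 and 659 in shBP2-2 (-1.44 ± 0.08). PBX3 footprints were 9.84 and 6.58 in shBP2-1 against 42.9 and 43.6 in shBP2-2 (-2.29 ± 0.30). These 6 genes were chosen from those called, so the lack of overlap between their footprint groups is no further result. The STC2 and PBX3 footprints were under 10 in both shBP2-1 libraries, and these genes passed the minimum mean of 10 through shBP2-2. The same held for CHAC1, CD70 and ENPP2, which were also called. FZD6 and HECTD3, called higher, were under 10 in both shBP2-2 libraries and passed through shBP2-1. The minimum admits such genes through 1 hairpin, so their calls in the mRNA direction are no further result. GPT2 footprints were near the minimum, with 19.7 and 8.78 in shBP2-1 against 11.2 and 13.8 in shBP2-2. They differed by 0.09 ± 0.44 (limma adjusted p = 0.913) and were not called, and so wide an error leaves their direction undecided. AARS1 footprints differed by -0.16 ± 0.13 (limma adjusted p = 0.414) and were not called either. CHAC1 had few footprints, 3.94 and 0 in shBP2-1 against 25.8 and 22.2 in shBP2-2.

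**Figure D5:**
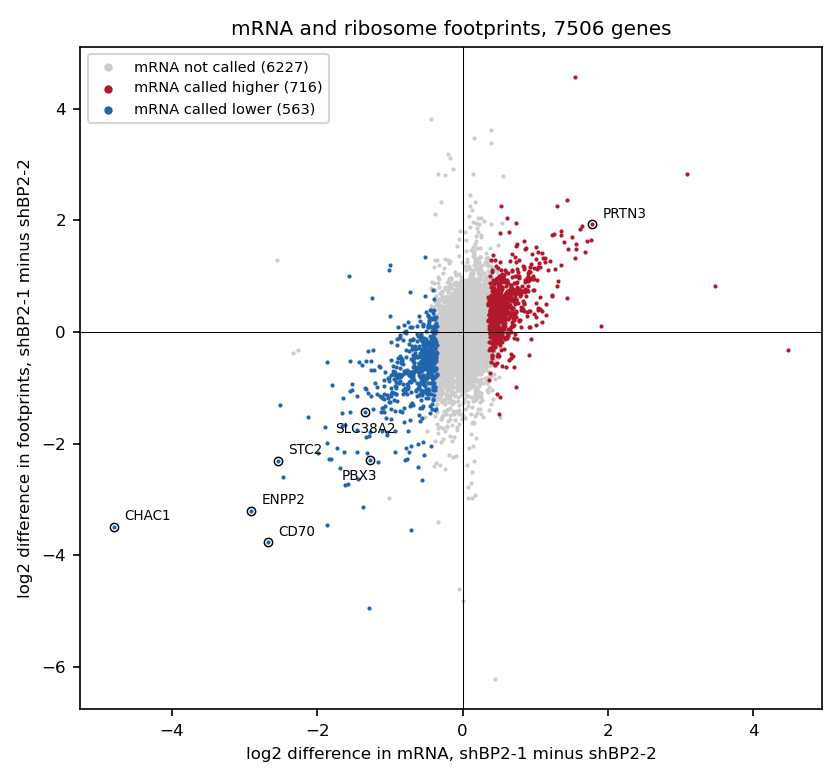
Each point is 1 of the 7506 genes tested in both assays, with the log2 mRNA difference on the horizontal axis and the log2 footprint difference on the vertical axis, both shBP2-1 minus shBP2-2. Genes called lower in mRNA (blue, 563) lie mostly at negative footprint differences and genes called higher (red, 716) mostly at positive ones.

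Gene length and other cell types were checked beside these results. Calls on the lower side were more frequent among long genes. Genes were placed in 5 equal bins by span. In the bin of the longest, from 87855 bases up, 16.0% were called lower and 5.37% higher, against 7.94% lower and 10.7% higher in the bin of the shortest, up to 9990 bases. Replicates also differed along gene span. In the longest bin the median of replicate 1 minus replicate 2 was -0.12 within shBP2-1 and 0.08 within shBP2-2, and in the shortest it was 0.20 and -0.13. With the span trend removed from each library, 2330 genes were called, of which 2014 were among the 2248. Markers of other cell types were summed. Of 13 T and NK cell markers, 5 were at 0 in all 4 libraries (CD3D, CD3E, CD2, GNLY and KLRD1), and the sum of the list was 1889 and 1493 in shBP2-1 against 1798 and 2060 in shBP2-2, most of it NKG7. CD8A, 1 of the 3 tested, had 29.7 and 33.3 in shBP2-1 against 151 and 181 in shBP2-2 (-2.36 ± 0.23) and was the single call on the 4 marker lists. B cell markers summed to 61.4 and 48.0 in shBP2-1 and 69.5 and 77.4 in shBP2-2, erythroid and megakaryocyte markers to 301 and 251 in shBP2-1 and 220 and 272 in shBP2-2, and epithelial and fibroblast markers to 429 and 486 in shBP2-1 and 405 and 507 in shBP2-2. At 0 in all 4 libraries were PAX5, VPREB1 and JCHAIN of the 9 B cell markers, HBB, HBG1, HBG2, ALAS2, SLC4A1, PF4 and GP9 of the 15 erythroid and megakaryocyte markers, and COL1A2, COL3A1 and LUM of the 13 epithelial and fibroblast markers. The part of CD8A-expressing or other cells in the results was not tested.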

How the data were processed

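Gene-level mRNA and ribosome footprint tables of MM6 cells were used. The deposited values are scores: read counts that the authors normalized and rounded to whole numbers, by a method the sources used here do not name. Per the submitters' processing notes the tools were FastQC, cutadapt, Bowtie, STAR, RSEM and the build hg38, with no versions or roles. Since the values are not raw counts, no count model was used. Columns were divided by median-ratio factors over the 4 libraries of both hairpins, genes with a mean of at least 10 were kept, and log2(value + 1) was fitted with limma 3.58.1 (R 4.3.3, mean-variance trend, 2 residual and 15.7 prior degrees of freedom), shBP2-1 minus shBP2-2, without a replicate block, with Benjamini-Hochberg adjustment over 12197 genes. A fold on this scale understates the change of low genes. Read depth before normalization is unknown. Footprints had the same fit. The fit was also run on simulated independent libraries with known changes. Those lack the shared replicate deviations and span trends seen here, so that run says nothing on the reliability of the calls.

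The members and the 41 gene lists were chosen with earlier results of these data known, so the lists' counts are descriptions. Genes were named as IGF2BP1 to IGF2BP3, MYC, GPT2 and SLC1A5, as the 15 per direction with the largest called differences without overlap at a mean of at least 100, as the 10 per direction at a mean of at least 2000, and as 4 per list with at least 40% of members called in 1 direction. Other list members are named with their values. A few genes that these rules select are not reported here. Of the 19951 entries, 19187 matched a symbol of the RefSeq table (GRCh38.p14), which gave gene positions, spans and promoter windows. Duplicate entries (52), clone names and readthrough names were not named. Alternatives covered rescaling, pseudocounts, filters, a replicate block and each library left out. Figures used matplotlib 3.10.9.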

Additional observations from a re-analysis of the deposited data

How the results depend on the processing

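The count of 2248 called mRNA genes was 792 with no filter on low values, 920 with the replicate number as a block and 1379 with no mean-variance trend. Leaving out 1 library gave 764 to 2770. Within 1.5 times of it were no rescaling (2305), quantile normalization (2143), pseudocounts of 0.5 (2238) and 5 (2277), a minimum mean of 50 (2107), all 6 mRNA libraries in 1 fit (2852) and removal of the gene span trend (2330). With no rescaling 55.7% of the calls were higher, against 47.1%. The replicate numbers were not taken as a pairing, since there are 2 pairs and same-numbered libraries deviated with a correlation of -0.37. With the numbers crossed, an alternative chosen after seeing the data, 6954 genes were called. The 1274 footprint calls became 7999 with no rescaling of libraries of unequal totals, and 97 to 2241 with 1 library left out. Amino acid transporters called lower numbered 6 to 10 with 1 library left out. The 12 cytosolic synthetases called lower became 6 with no filter, 4 under the replicate block, 6 with no trend and 3 to 14 with 1 library left out. The 10 self-renewal genes became 4 with no filter, 4 under the block, 5 with no trend and 2 to 9 with 1 library left out. The sign of the BCL2 family median turned with no filter (-0.068), and the median of mtDNA-encoded subunits was 0 after quantile normalization. Of 192 called genes chosen to be named, 67 lost their call with no filter, 65 under the block and 51 with no trend, and none changed sign. The cause of these shifts was not tested.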
